A study of Arabidopsis thaliana with 6 samples.

Results

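The polyamine synthesis genes of Arabidopsis thaliana seeds were followed through 11 probe sets on Affymetrix arrays, out of 22746 that are no controls. They are ADC2 (AT4G34710) and every probe set whose title in the authors' deposited table names an arginine decarboxylase, a spermidine or spermine synthase or an adenosylmethionine decarboxylase. The other 10 members came in by title, through phrases chosen with earlier results of these data known. ADC2 was chosen by its low level in the mutant in this same comparison, so its difference is described below without a test. Total RNA came from seeds of wild-type Col-0 (3 arrays) and of a mads-box mutant, agl67, in the same Columbia-0 ecotype (3 arrays), and the allele is not given in the sources used here. Seeds of both genotypes lay in water in the dark at 4 °C for 3 days. They then spent 3 hours in the light, at 22 °C, in 5 µM ABA (abscisic acid, a hormone that holds back germination), so that no group went without ABA. The arrays are labelled biological replicates, with nothing on how the seed lots relate, and p-values measure the spread between these arrays. Their number limits the precision.

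Polyamines are small positively charged molecules that bind nucleic acids and membranes. In Arabidopsis, which lacks an ornithine decarboxylase gene, putrescine is made from arginine: arginine decarboxylase forms agmatine, which further enzymes turn into putrescine. Spermidine synthase then adds an aminopropyl group to putrescine, spermine synthase adds another, and adenosylmethionine decarboxylase supplies the donor of these groups. ADC2 is the arginine decarboxylase gene known for its response to drought, salt and ABA, whereas ADC1 is known as the more evenly expressed partner. Embryos that lack both arginine decarboxylases, or both spermidine synthases SPDS1 and SPDS2, do not develop.

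The mutant label was checked on AGL67 (AT1G77950), whose mean log2 level was 8.61 ± 0.31 on the wild-type arrays and 4.03 ± 0.33 on the mutant arrays (SD, n = 3 each). The third wild-type array stood apart from the rest, with a median of 3.80 against 3.97 to 4.00 on the other 5 arrays. Its lowest correlation with another wild-type array across all probe sets was r = 0.980, while the lowest between mutant arrays was 0.996. Seed identity was plain from 7 probe sets for storage and late embryogenesis proteins, all at or above the 95.2th percentile of readings. Their summed level (log2 of the sum of linear readings) spanned 15.39 to 15.57 in wild type and 15.22 to 15.41 in the mutant. At a limma adjusted p under 0.05, 1 of the 7, for a 2S storage protein, fell, beside 0.778% of all probe sets. For 18 probe sets of photosynthesis in green seedlings this sum, in which the brightest weigh most, spanned 8.37 to 8.54 in wild type and 8.99 to 9.06 in the mutant. By the same threshold 3 of them rose, beside 1.93% of all probe sets. Their median log2 difference was 0.11, and 0.04 with each array centred on its median. Their mean readings lay between the 8.63th and the 70.7th percentile. The endosperm marker EXPA2, an expansin gene, read 3.47 to 4.25 in wild type and 4.31 to 4.92 in the mutant. These arrays did not overlap, as for 14.9% of all probe sets in this direction, and the difference did not pass in limma (adjusted p = 0.127). Of the 4 endosperm loci listed, only 1 was paired with a probe set. The part of these marker differences in the polyamine results was not tested, and in whole seeds fewer cells of a type and less RNA per cell cannot be told apart.

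Both arginine decarboxylase genes, which open the route to putrescine, had lower readings on every mutant array than on any wild-type array. Of the spermidine synthases, SPDS1 and SPDS2 had higher readings on every mutant array, and a probe set titled a putative spermidine synthase, with no gene name here, had lower readings on every mutant array. The 4 adenosylmethionine decarboxylase probe sets, AT5G04610 and a spermine/spermidine synthase family probe set overlapped between the genotypes. Of the 10 members other than ADC2, 0 passed an adjusted p of 0.05 over all probe sets in limma, where 2.70% of all probe sets did (1.93% higher and 0.778% lower in the mutant). The authors' deposited table, read at a false discovery rate under 0.05, also called 0 of the 10, beside 2.25% of all. At an unadjusted p under 0.05, 4 of the 10 passed, 2 lower and 2 higher, against 16.4% of all probe sets (5.33% lower and 11.1% higher). These 4 are also the ones whose arrays did not overlap, which held for 24.0% of all probe sets (9.16% lower and 14.9% higher). The 10 had a median log2 difference, mutant minus wild type, of 0.01, beside 0.02 for all probe sets.

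**Figure D1:**
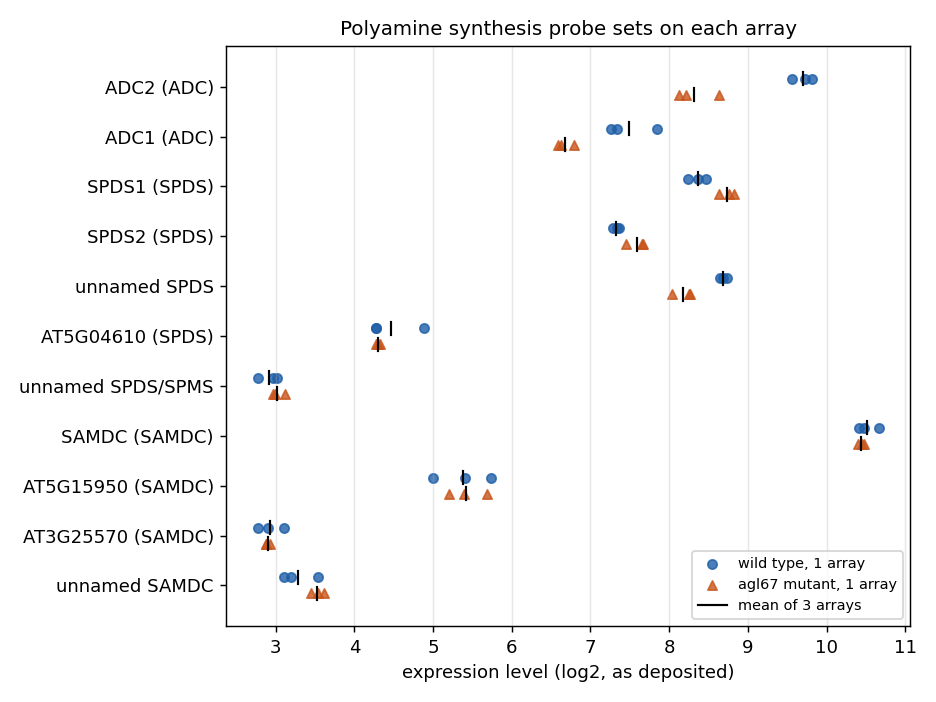
Log2 level of the 11 polyamine synthesis probe sets (rows, with the enzyme family in brackets) on each wild-type array (circles) and agl67 mutant array (triangles), with group means as black ticks. SPDS stands for spermidine synthase, SPMS for spermine synthase, SAMDC for adenosylmethionine decarboxylase and ADC for arginine decarboxylase. The circles and triangles are apart for ADC2, ADC1, SPDS1, SPDS2 and the unnamed SPDS (the putative spermidine synthase) and overlap in the other 6 rows.

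ADC2 encodes the arginine decarboxylase that responds to stress. Its log2 levels were 9.56, 9.72 and 9.81 on the wild-type arrays and 8.63, 8.21 and 8.12 on the mutant arrays. Every mutant array was thus below the lowest wild-type array, which is a description only, as ADC2 was chosen by this difference. The means were 9.70 ± 0.12 and 8.32 ± 0.27 (SD, n = 3), a log2 difference of -1.38, or readings 2.60-fold lower in the mutant. Across all probe sets 21 had a more negative difference. In the fits that leave out 1 array the difference of ADC2 ran from -1.53 without the first mutant array to -1.28 without the third, and it was -1.32 without the third wild-type array. In the authors' deposited table its log2 ratio was -1.41.

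ADC1 (AT2G16500) encodes the other arginine decarboxylase. It read 7.26, 7.85 and 7.34 on the wild-type arrays and 6.79, 6.63 and 6.59 on the mutant arrays. The second wild-type array was the highest, and the mutant arrays lay closer together (SD 0.11) than the wild-type arrays (SD 0.32). Means of 7.49 and 6.67 gave a log2 difference of -0.81 (SE 0.17, 95% interval -1.21 to -0.42), which did not pass in limma (adjusted p = 0.0536). With the first wild-type array left out it did pass (-0.93, limma adjusted p = 0.0491), as it did with the third left out (-0.89, adjusted p = 0.0162). The difference was smallest, at -0.63, with the second left out, and did not pass there (limma adjusted p = 0.0728). Nor did it pass with any mutant array left out (limma adjusted p from 0.158 to 0.23). Quantile normalization of the arrays, which changes their scaling, gave -0.94 with a limma adjusted p of 0.0199. Over all 14 alternatives the adjusted p ran from 0.00755 to 0.230. A ratio of -0.80 and a false discovery rate of 0.0564 stand for ADC1 in the authors' deposited table.

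SPDS1 (AT1G23820) encodes a spermidine synthase. Its readings were 8.37, 8.47 and 8.24 in wild type and 8.83, 8.76 and 8.63 in the mutant. All mutant arrays were higher, and the log2 difference of 0.38 (SE 0.11, 95% interval 0.12 to 0.63) did not pass in limma (adjusted p = 0.140). SPDS2 (AT1G70310), the close relative, read 7.34, 7.36 and 7.28 in wild type and 7.67, 7.65 and 7.45 in the mutant. Here too the mutant arrays were higher, by 0.26 (SE 0.10, 95% interval 0.03 to 0.50), and the difference did not pass (adjusted p = 0.257). Among the alternatives SPDS1 lay between 0.31 and 0.43 and SPDS2 between 0.17 and 0.33, and neither passed in any.

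The putative spermidine synthase is also titled a putrescine aminopropyltransferase, and its probe set is not paired with a gene here. It gave 8.69, 8.65 and 8.74 on the wild-type arrays, with an SD of 0.04, and 8.25, 8.26 and 8.04 on the mutant arrays. Mutant readings were lower, opposite to SPDS1 and SPDS2. The log2 difference of -0.51 (SE 0.10, 95% interval -0.75 to -0.27) did not pass in limma (adjusted p = 0.0521), but did with the third wild-type array left out (-0.49, adjusted p = 0.0329). With any other array left out it did not pass (limma adjusted p from 0.0851 to 0.223). After quantile normalization it was -0.55 with a limma adjusted p of 0.0283, and over the 14 alternatives the adjusted p ran from 0.0257 to 0.223. The intervals of SPDS1 and of the putative spermidine synthase lie on opposite sides of 0, and the difference between these members was not tested.

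**Figure D2:**
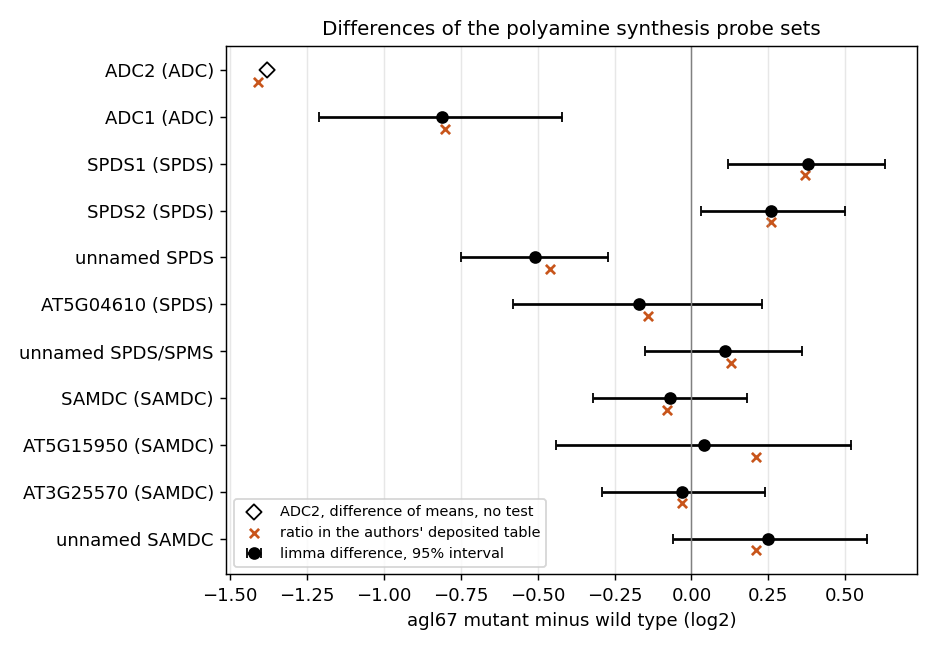
Log2 difference, agl67 mutant minus wild type, of each polyamine synthesis probe set (black points with 95% intervals from limma, and a diamond without one for ADC2, which was chosen by this difference) and the log2 ratio in the authors' deposited table (crosses). ADC2 at -1.38 and ADC1 at -0.81 lie farthest to the left, and 6 of the 10 intervals hold 0.

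AT5G04610 is called only spermidine synthase-related in the files. It read 4.27, 4.88 and 4.27 in wild type and 4.32, 4.27 and 4.30 in the mutant. Only the second wild-type array stood out, and the log2 difference changed from -0.17 (95% interval -0.58 to 0.23, limma adjusted p = 0.678) to 0.03 without that array. The probe set of the spermine/spermidine synthase family, with no gene name here, stayed between 2.77 and 3.12 on the 6 arrays, near the 20.0th percentile of readings. Its difference was 0.11 (95% interval -0.15 to 0.36). Whether readings this low lie above background was not tested.

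Adenosylmethionine decarboxylase, which makes the aminopropyl donor, is represented by 4 probe sets. SAMDC (AT3G02470) read 10.47, 10.41 and 10.67 in wild type and 10.48, 10.40 and 10.45 in the mutant. The groups overlapped, with a difference of -0.07 (SE 0.11, 95% interval -0.32 to 0.18, limma adjusted p = 0.787). AT5G15950 had the widest wild-type spread of the family (5.74, 5.41 and 5.00) and read 5.39, 5.68 and 5.20 in the mutant. Its difference of 0.04 had no settled sign, being -0.14 after quantile normalization and 0.21 in the authors' deposited table. AT3G25570 stayed between 2.77 and 3.10, at the 16.8th percentile of readings, and whether this lies above background was not tested. It differed by -0.03 (95% interval -0.29 to 0.24), which turned to 0.06 without the third wild-type array. The remaining probe set of the family, unnamed and at the 38.9th percentile, read 3.20, 3.54 and 3.10 in wild type and 3.54, 3.45 and 3.61 in the mutant. Its difference was 0.25 (95% interval -0.06 to 0.57, limma adjusted p = 0.413).

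**Figure D3:**
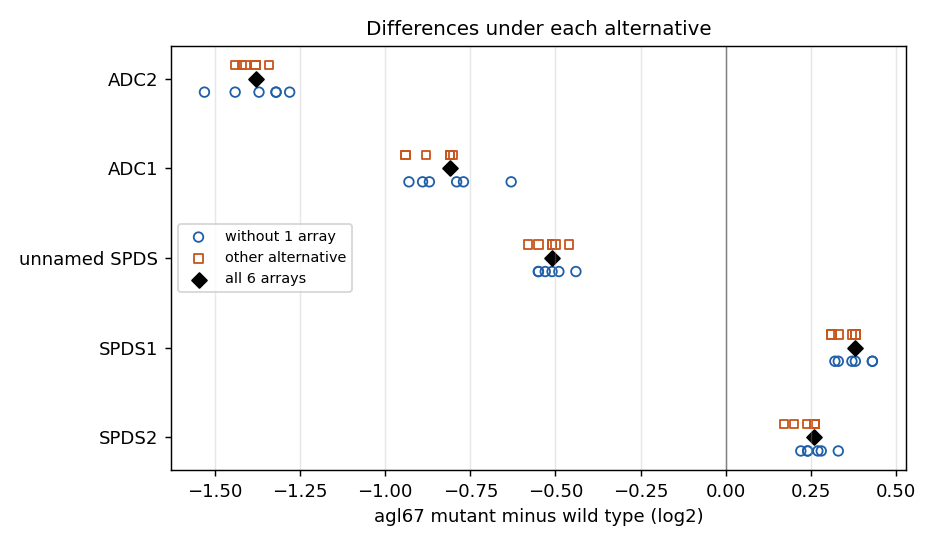
Log2 difference, agl67 mutant minus wild type, of the 5 members whose arrays did not overlap, with all 6 arrays (diamonds), with 1 array left out (circles) and under the other alternatives (squares). No point crosses 0, which leaving out 1 array could not change as the arrays do not overlap, and ADC1 spans -0.94 to -0.63.

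The genes around polyamine synthesis were taken from 10 lists that name 75 loci, extended by title, and gave 63 probe sets that are no members. Of these 2 rose, 0 fell and 61 did not pass in limma (3.17%, beside 2.70% of all probe sets), and 14 had an unadjusted p under 0.05 (22.2%, beside 16.4% of all probe sets). Their median log2 difference was 0.08. A false discovery rate under 0.05 in the authors' deposited list was reached by 3 of the 63, these 2 and CuAO1.

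Upstream of the pathway, S-adenosylmethionine synthetases make the substrate shared by adenosylmethionine decarboxylase and ethylene synthesis. A probe set titled a putative synthetase of this kind read 10.24, 10.09 and 9.99 in wild type and 11.13, 11.27 and 11.15 in the mutant. All mutant arrays were higher, and it rose by 1.08 on the log2 scale (SE 0.11, limma adjusted p = 0.00486), a call that held in all 14 alternatives with an adjusted p from 0.000581 to 0.0468. Of the 5 probe sets in this list, 1 rose and 4 did not pass, with a median difference of 0.50 and a range from 0.00 for SAM-2 (-0.07 with each array centred on its median) to 1.08. The median was 0.29 with the third wild-type array left out.

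Ethylene synthesis draws on the same substrate through ACC synthase and ACC oxidase. A putative ACC oxidase with no gene name here read 6.26, 6.57 and 6.11 in wild type and 7.94, 8.05 and 7.61 in the mutant. It rose by 1.55 (SE 0.16, limma adjusted p = 0.00544), also in all 14 alternatives (adjusted p from 0.00106 to 0.0466). The other 15 of the 16 probe sets did not pass, and the list median was 0.07 (0.03 to 0.13 with 1 array left out). EFE, which encodes a further ACC oxidase, had a difference of 0.37 that did not pass in limma (adjusted p = 0.202). Its mutant arrays were all higher than its wild-type arrays, as for 14.9% of all probe sets.

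Arginine is the substrate of ADC1 and ADC2. None of the 7 probe sets of arginine synthesis passed in limma. An unadjusted p under 0.05 was reached by 3, beside 16.4% of all probe sets (11.1% higher in the mutant). All 7 had a difference above 0, from 0.08 to 0.55 with a median of 0.33, but 6 of 7 did after quantile normalization (median 0.18) and 6 of 7 with the third wild-type array left out (median 0.12). The median difference of all probe sets was 0.02, and 0.08 with the dimmest 40% left out. All 7 lay at or above the 60.5th percentile of readings. The argininosuccinate lyase gene AT5G10920, for the last step to arginine, differed by 0.55 (limma adjusted p = 0.116), and CARA, for a subunit of carbamoyl-phosphate synthase, by 0.42 (adjusted p = 0.205). An acetylornithine aminotransferase probe set differed by 0.48 (limma adjusted p = 0.166). A probe set shared by arginase genes, whose enzymes compete with arginine decarboxylase for arginine, differed by 0.38 with overlapping arrays (95% interval -0.17 to 0.92, limma adjusted p = 0.476).

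Amine oxidases break polyamines down. Of 18 probe sets 0 passed in limma and 1 had an unadjusted p under 0.05, beside 16.4% of all probe sets. Differences were below 0 for 12 and above 0 for 6, with a median of -0.08. With the second wild-type array left out 10 of 18 were above 0 and the median was 0.02, so the list had no settled sign. The probe set with an unadjusted p under 0.05 was CuAO1 (AT1G62810), a copper amine oxidase gene, which read 7.43, 7.39 and 6.84 on wild-type arrays and 8.07, 8.05 and 7.99 on mutant arrays. Its difference of 0.81 (SE 0.17, limma adjusted p = 0.0524) missed the threshold, while the authors' deposited table gives a false discovery rate of 0.0482. AT1G31710, also titled a copper amine oxidase, came next by p-value, with a difference of 0.25 on 1 of its probe sets (limma adjusted p = 0.370) and -0.08 on another. The former lay at the 10.9th percentile of readings, and whether this lies above background was not tested. The most negative difference was that of a probe set of AT1G31690, a further copper amine oxidase gene, with -0.81 (limma adjusted p = 0.380). This probe set read 3.17, 3.55 and 4.95 on the wild-type arrays, the third standing out, and 2.95 to 3.15 on the mutant arrays. The other probe set of AT1G31690 differed by -0.26, with overlapping arrays (limma adjusted p = 0.598). Not every enzyme titled an amine oxidase is known to act on polyamines.

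Putrescine breakdown can feed gamma-aminobutyric acid (GABA), by way of aminoaldehyde dehydrogenases. In the GABA list 0 of 8 probe sets passed in limma, and 3 had an unadjusted p under 0.05, beside 16.4% of all probe sets. The list median was 0.21 (0.11 with the third wild-type array left out). ALDH10A8, an aminoaldehyde dehydrogenase gene, had a difference of 0.78 (limma adjusted p = 0.0519), and ALDH5F1, which encodes succinate-semialdehyde dehydrogenase, one of 0.62 (adjusted p = 0.0664). On all mutant arrays both read higher than on any wild-type array, as did 14.9% of all probe sets. The GABA-forming glutamate decarboxylases GAD (GAD1) and GAD2 differed by 0.08 and 0.02, at the 11.5th and 39.9th percentile of readings. A probe set shared by putative glutamate decarboxylases, at the 15.4th percentile, differed by -0.29 (limma adjusted p = 0.372). Whether readings this low lie above background was not tested.

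Spermidine donates part of its chain to the hypusine residue of the translation factor eIF5A. None of 4 probe sets in this list passed in limma, and 1 had an unadjusted p under 0.05, beside 16.4% of all probe sets. It is titled a putative eIF5A and differed by 0.43 (limma adjusted p = 0.0572). A further eIF5A probe set, at the 30.9th percentile of readings, differed by -0.30 (limma adjusted p = 0.568). It read 3.02, 3.14 and 3.85 in wild type, the third array standing out, and 3.23, 2.84 and 3.06 in the mutant. Another eIF5A probe set, at the 99.5th percentile, differed by -0.05. The probe set of deoxyhypusine synthase, for the enzyme that starts this modification, differed by 0.02. Among polyamine conjugation and acetylation genes 0 of 4 passed, 0 at an unadjusted p under 0.05, with differences from -0.10 (SDT, a spermidine disinapoyl transferase gene, and SHT, a spermidine hydroxycinnamoyl transferase gene) to -0.01. SDT read 3.10, 2.96 and 2.95 in wild type and 2.94, 2.86 and 2.92 in the mutant, at the 19.1th percentile. Its arrays thus narrowly did not overlap, as for 9.16% of all probe sets in this direction. The 5 listed polyamine transporter genes were not paired with a probe set and are not analysed here.

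**Figure D4:**
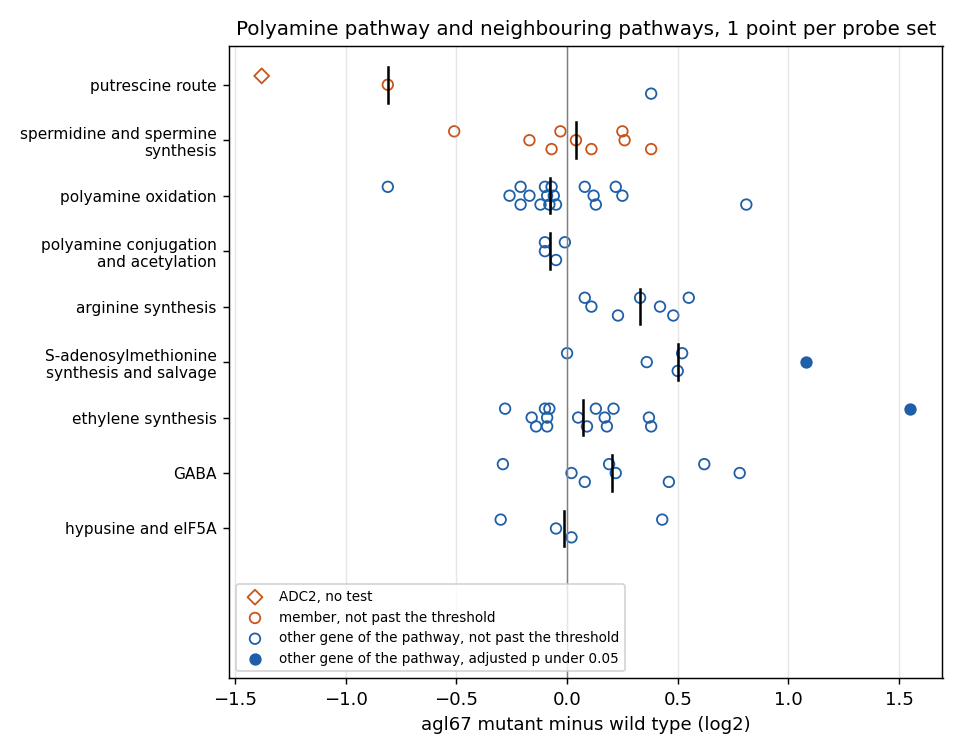
Log2 difference, agl67 mutant minus wild type, of each probe set in 9 lists of the polyamine pathway and its neighbours, with the members in orange, other genes in blue, list medians as black lines and filled points for an adjusted p under 0.05 in limma. ADC2 (diamond, no test) is the leftmost point at -1.38, and the filled points are an S-adenosylmethionine synthetase at 1.08 and an ACC oxidase at 1.55.

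The probe sets naming 1 gene whose readings followed ADC2 most closely over the 6 arrays were those of AT1G05340, FUS6, AT1G76590, AT5G24970 and UBC19, with Pearson's r from 0.992 to 0.996. A gap between the genotypes enters this r, and all 5 had lower readings on every mutant array. FUS6, which encodes a subunit of the COP9 signalosome, differed by -0.27 on the log2 scale, and UBC19, a ubiquitin-conjugating enzyme gene, by -0.62. AT1G05340, called an expressed protein, had the largest difference of the 5, with -0.94. After subtraction of the genotype means the closest were AT3G61490, B70, AT1G31370, AT3G28790 and AT2G10070 (r from 0.992 to 0.996). Both sets describe these 6 arrays alone, and the latter 5 had mean readings between the 11.4th and the 41.9th percentile.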

How the data were processed

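Total RNA of 6 seed samples was hybridised to Affymetrix arrays. RMA and limma are named in the submitters' processing notes, with no order. Log2 values, 1 per probe set and array, were deposited by the authors and used without further scaling. Their comparison table, also deposited, gives log2 ratios, p-values and false discovery rates, which the file headers tie to limma. Genome build and annotation are not given in the sources used here.

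The 64 control probe sets were left out. Genotype was the term of a linear model (lmFit and eBayes of limma 3.58.1, R 4.3.3), mutant minus wild type, with Benjamini-Hochberg adjustment over 22746 probe sets and a threshold of 0.05. The fit was also run on simulated data with independent noise. These held no outlying array like the third wild-type one, so they do not bear on its part in the calls. Genes were paired with probe sets through the platform's gene table (13436 probe sets) and then through names in the authors' table matched to RefSeq TAIR10.1 (1850 more), kept where 1 of the 10 nearest-numbered named probe sets lies on the same chromosome. Of the 11 members 4 were named by each route and 3 stayed unnamed. No sequence is printed.

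The text names every member, AGL67, list genes past the threshold or else the pair with the smallest p-values, and the 5 probe sets most like ADC2 by each measure. AT1G31690, EFE, CARA, SAM-2, the glutamate decarboxylases, the marker genes, the brightest eIF5A probe set and the eIF5A modification enzyme were chosen after their values were seen. The members, lists and title phrases were chosen with earlier results of these data known. Same-numbered arrays had correlated deviations of -0.16, 0.14 and 0.22, so the numbers were not taken to pair the arrays. Alternatives were a replicate block, 1 array left out, an intensity trend, robust estimation, array weights, quantile normalization, median centring, leaving out the dimmest 40% of probe sets, and the authors' table.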

Additional observations from a re-analysis of the deposited data

How the results depend on the processing

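The difference of ADC2, by which it was chosen, ran from -1.53 to -1.28 over the 14 alternatives. As its arrays do not overlap, leaving out 1 array could not turn its sign, and this range is a description only. The count of other members past the threshold was 2 (ADC1 and the putative spermidine synthase) with an intensity trend, array weights, quantile normalization or median centring, 1 (ADC1) without the dimmest 40% of probe sets, and 0 to 2 with 1 array left out. For the neighbouring pathways the count was 5 with an intensity trend, 8 with array weights, 6 after quantile normalization, 5 after median centring, 4 without the dimmest probe sets, and 2 to 7 with 1 array left out. Across the array 615 probe sets passed, 704 with an intensity trend, 1490 with array weights, 1042 after quantile normalization and 900 after median centring. The total was 716 without the dimmest 40%, and 86 to 1530 with 1 array left out, the most without the third wild-type array. Thus the named settings with more members and neighbours past the threshold, leaving out 1 array aside, also called more probe sets in all. The share of calls higher in the mutant was 71.2%, and 56.9% after quantile normalization. The cause was not tested. With the replicate number as a block, 443 probe sets, 0 of the other members and 2 neighbouring probe sets passed. By deviations from the genotype means the second and the third wild-type arrays correlated best with the mutant array of their own number, but the first correlated best with the second mutant array (0.337). The sign changed in some alternatives for AT5G15950, AT3G25570, AT5G04610 and SAMDC, none of which passed.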
